A study of Bos taurus with 24 samples.

Results

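The expression of 9 genes of sphingolipid and glycolipid metabolism, out of 24621 genes listed, was examined in 24 single early bovine blastocysts. The genes were SPTLC1, SPTLC2, UGCG, SMPD1, HEXA, GALC, PSAP, ASAH1 and SGPL1. They were chosen because glycolipid genes were lower after culture with serum than in vivo, so that contrast, over both sexes and within each, is given for them as a description: no p is printed for it and nothing is read from its calls. All 9 symbols were found in the count data.

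Sphingolipids are membrane lipids built on a sphingoid base. Serine palmitoyltransferase makes the base, which is turned into ceramide, and ceramide is carried on to sphingomyelin or, after addition of a sugar, to glycosphingolipids. In the lysosome these lipids are taken apart again, sugar by sugar, by hydrolases that often need a small activator protein, and the ceramide released is cleaved to sphingosine, which can be phosphorylated and finally broken down.

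The embryos formed 6 groups. In vivo derived embryos numbered 8, of which 5 were male and 3 female. Production in serum-containing medium gave 3 males and 5 females (serum embryos), and production in serum-free medium 5 males and 3 females (serum-free embryos). All were Holstein, sired by a single bull, and all were graded as early blastocysts of quality 1. The in vivo derived embryos were flushed from the uterus of 3 superovulated cows on day 7 after insemination. The in vitro embryos came from slaughterhouse oocytes in 3 experiments and were collected between day 6 and 7. For the serum group, fetal bovine serum was present during both oocyte maturation and embryo culture. For the serum-free group it was replaced by epidermal growth factor during maturation and by albumin with insulin, transferrin and selenium during culture. Since the labels name neither the cow or experiment behind an embryo nor its sequencing lane, values within such batches were not obtained. The embryos of 1 group are separate embryos that share a sire and, in part, a mother or an experiment. Because whole embryos were lysed, fewer cells of a type and less RNA per cell cannot be told apart.

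The embryos had between 3253051 and 9000447 counts each, the count being the number of fragments mapped uniquely to the exons of a gene. Levels are given as CPM (counts scaled to the library total) after TMM normalization, a scaling that equalizes library composition. They are not divided by gene length, so they are compared between embryos and not between genes. DDX3Y on the Y chromosome had at least 101 counts in every male embryo and at most 2 in every female one. Female embryo B2 of the serum group stood apart, with a median correlation of 0.770 with its own group, against 0.862 to 0.942 in the other 23 embryos. B2 was the lowest of the serum embryos for 5 of the 9 genes and the highest for 1, and the values for serum over in vivo over both sexes are given with and without it. Markers of the trophectoderm, the outer epithelium of the blastocyst, were present in all groups, but their summed level was 7604 to 14880 CPM in the in vivo derived embryos, 332.6 to 5207 in the serum embryos and 5049 to 28790 in the serum-free embryos. Most of that sum came from KRT8 and KRT18, with in vivo medians of 8767 and 1826 CPM against 11070 for the sum. The sums of the 3 inner cell mass markers lay at 210.3 to 274.4, 175.0 to 318.9 and 130.9 to 416.2 CPM. POU5F1 made up most of them, with medians of 212.4, 153.1 and 179.4 CPM in the same order. NANOG was at 12.4, 28.4 and 22.0, and SOX2 at 7.88, 16.1 and 11.2. Sums were at most 48.9 CPM for 9 markers of cumulus and granulosa cells, of which PTX3 was at 0 in every embryo, at most 15.5 for 7 of leukocytes and at most 19.8 for 4 of oviduct and endometrium.

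**Figure D1:**
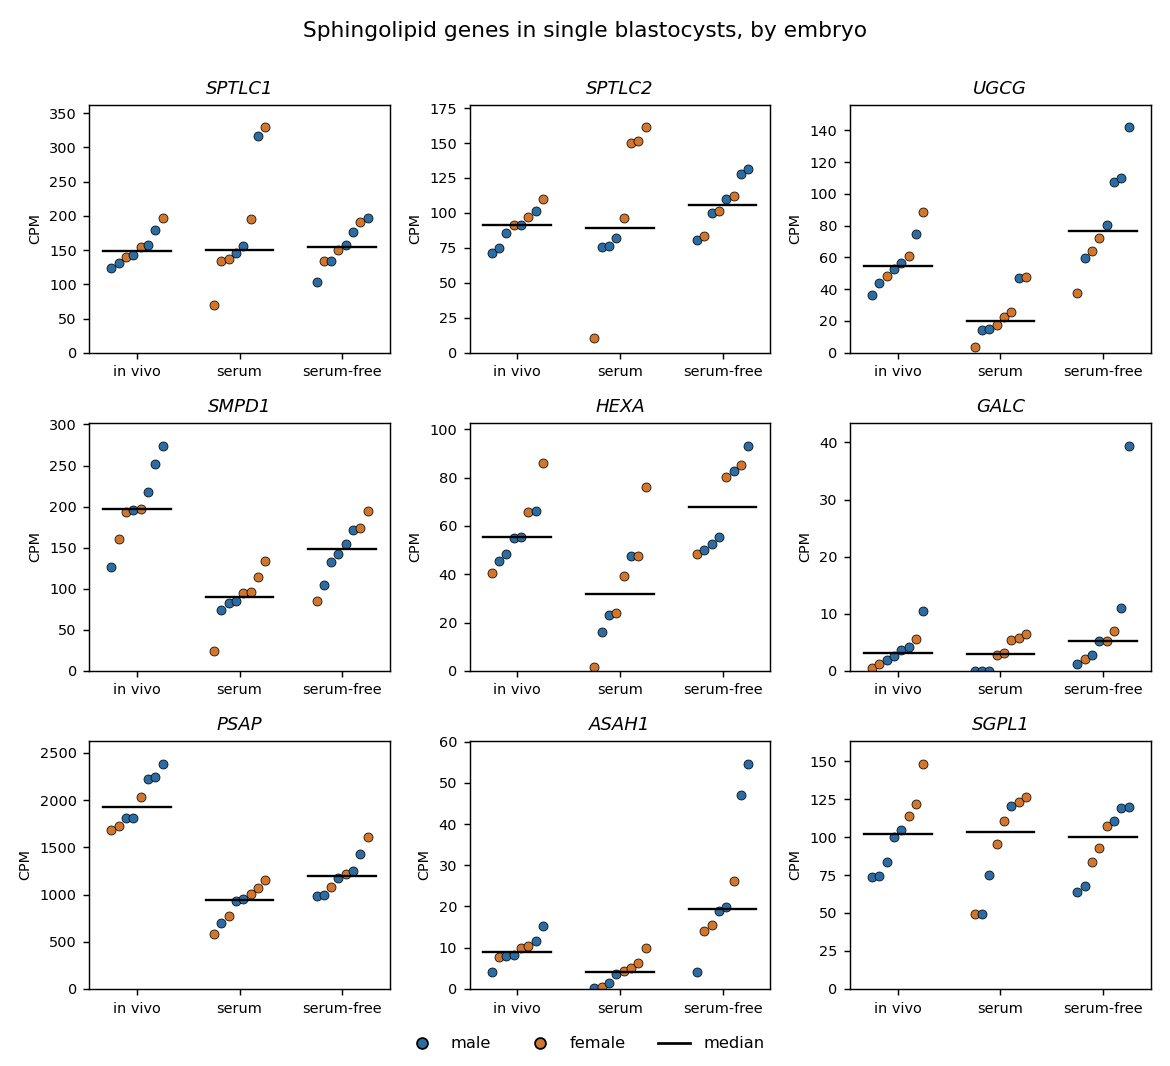
Level of each of the 9 genes (CPM, linear axis from 0) in each of the 24 embryos, by culture condition, with male and female embryos in different colours and the median of each culture as a line. PSAP is the gene whose in vivo derived embryos, from 1685 to 2387 CPM, all lie above all 16 in vitro embryos.

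PSAP, ASAH1 and GALC are summarized first. PSAP, which encodes the precursor of the saposin activator proteins, was lower in all 8 serum-free embryos than in any in vivo derived embryo. Groups without overlap, in either direction, were seen in 0.930% of all genes tested in that contrast. All 8 serum embryos also lay below, which is a description only, since the contrast with serum chose the genes. ASAH1, the acid ceramidase, was higher in serum-free embryos than in in vivo derived ones, the direction opposite to its difference in serum. With 9 of the 16 embryos, each left out in turn, its edgeR adjusted p for serum-free was no longer under 0.05. GALC, the lysosomal galactosylceramidase, had no count in the 3 male serum embryos and at least 16 in each of the 5 female ones. It entered the test between these sexes only through the females. Its edgeR adjusted p there was not under 0.05 with any of the 8 embryos left out. SPTLC1 and SPTLC2, at the entry of the pathway, had similar medians in the 3 cultures.

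SPTLC1 and SPTLC2 encode the subunits that form the core of serine palmitoyltransferase. SPTLC1 lay at 123.4 to 197.2 CPM in the in vivo derived embryos (median 148.8, n = 8), at 69.6 to 329.2 in serum (median 150.6, n = 8) and at 103.6 to 196.2 in serum-free medium (median 154.2, n = 8). The groups overlapped throughout, and the 2 highest embryos, B2 and B5, were both from serum. The log2 fold change was 0.27 ± 0.25 (SE) for serum over in vivo, 0.13 without B2, and 0.02 ± 0.14 for serum-free over in vivo, where the 95% interval ran from -0.24 to 0.29 (edgeR quasi-likelihood test, adjusted p = 0.948). That interval lies well inside a 2-fold change in either direction.

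SPTLC2 lay at 71.2 to 110.3 CPM in vivo (median 91.1), at 10.3 to 161.1 in serum (median 89.0) and at 80.7 to 131.4 in serum-free medium (median 105.5). In serum the spread was wide: 3 female embryos lay above every in vivo derived embryo, and B2 alone lay below them. Without B2 the lowest serum embryo had 75.9 CPM. The log2 fold change was 0.15 ± 0.33 for serum over in vivo, 0.35 without B2, and 0.23 ± 0.14 for serum-free over in vivo (edgeR adjusted p = 0.338). In the newer bovine RefSeq annotation SPTLC2 overlaps 2 uncharacterized protein-coding loci. HEXA likewise overlaps a long non-coding RNA there, and since the libraries were not strand-specific the reads of such overlapping genes cannot be told apart.

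UGCG encodes ceramide glucosyltransferase, which adds the first sugar of most glycosphingolipids. It lay at 36.5 to 88.5 CPM in vivo (median 54.7), at 3.91 to 47.6 in serum (median 20.1) and at 37.9 to 141.9 in serum-free medium (median 76.5). All 8 serum embryos lay below the in vivo median and 6 below the in vivo range, whereas 7 of 8 serum-free embryos lay above the in vivo median. For serum over in vivo the log2 fold change was -1.26 ± 0.36, and -1.06 without B2, the lowest embryo. For serum-free over in vivo it was 0.54 ± 0.23, which did not pass (edgeR adjusted p = 0.172). Set against the serum-free embryos, the serum embryos were lower by a log2 fold change of -1.80 ± 0.39, and by -1.62 without B2.

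SMPD1, the lysosomal acid sphingomyelinase that releases ceramide from sphingomyelin, lay at 127.0 to 274.3 CPM in vivo (median 196.5). Its range was 24.2 to 133.3 in serum (median 90.0) and 85.2 to 194.2 in serum-free medium (median 148.8). Serum embryos were below the in vivo range in 7 of 8 cases, and all 8 serum-free embryos were below the in vivo median, although 6 stayed within the in vivo range. The log2 fold change was -1.20 ± 0.25 for serum over in vivo and -1.03 without B2. For serum-free over in vivo it was -0.48 ± 0.17, with a 95% interval from -0.81 to -0.15 and an edgeR adjusted p of 0.0972.

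HEXA encodes the alpha subunit of beta-hexosaminidase A, the enzyme of GM2 ganglioside breakdown. Its level was 40.5 to 85.9 CPM in vivo (median 55.3), 1.71 to 76.2 in serum (median 31.7) and 48.3 to 93.3 in serum-free medium (median 67.9). Of the serum embryos 5 lay below the in vivo range, B2 far below the next one at 15.9 CPM. The log2 fold change for serum over in vivo was -0.75 ± 0.42, and -0.54 without B2. For serum-free over in vivo it was 0.25 ± 0.19 (edgeR adjusted p = 0.484).

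PSAP is cleaved in the lysosome into the saposins, among them the activators of galactosylceramidase and acid ceramidase. It lay at 1685 to 2387 CPM in the in vivo derived embryos (median 1924), at 579.6 to 1151 in serum (median 944.9) and at 983.2 to 1607 in serum-free medium (median 1194). All 8 embryos of either medium lay below all 8 in vivo derived ones, while the ranges of the media overlapped each other. For serum over in vivo the log2 fold change was -1.16 ± 0.14, and -1.06 without B2. For serum-free over in vivo it was -0.71 ± 0.12, with a 95% interval from -0.93 to -0.48 and an edgeR adjusted p of 0.00152, a 1.63-fold lower level that is short of the 2-fold threshold. Groups that did not overlap were seen in 0.930% of the genes tested between in vivo derived and serum-free embryos and in 7.09% of those tested between in vivo derived and serum embryos. With each of the 16 embryos left out in turn the adjusted p for serum-free stayed between 0.00113 and 0.00472. Both comparisons use the same in vivo derived embryos, and PSAP was chosen from the first of them, so the lower level in serum-free medium is not independent of that choice. The 6 trophectoderm markers tested between in vivo derived and serum-free embryos had a median log2 fold change of 0.03, and the lowest edgeR adjusted p among them was 0.235. Single markers differed in direction, with KRT18 at a median of 1826 CPM in vivo and 1027 in serum-free medium, and GATA3 at 89.4 and 96.5. The part of trophectoderm content in the PSAP difference was not tested.

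ASAH1, acid ceramidase, splits ceramide into sphingosine and a fatty acid in the lysosome. In the in vivo derived embryos it had 4.11 to 15.3 CPM (median 9.06). In serum it had 0.312 to 9.84 CPM (median 4.03), and in serum-free medium 4.03 to 54.7 (median 19.4). Of the serum-free embryos 6 lay above the in vivo range, led by the males C4 with 54.7 and C7 with 47.0 CPM, while the male C1 was just below that range. The log2 fold change for serum-free over in vivo was 1.40 ± 0.39, a 2.64-fold higher level (edgeR adjusted p = 0.0371, higher than the in vivo median in 7 of 8 embryos). This call was lost with 9 of the 16 embryos left out, those being A1, A2, A4, A6, A7, A8, A9, C4 and C7, the adjusted p reaching 0.0868 and the log2 fold change 1.13 without C4. In serum 4 embryos lay below the in vivo range, with 1 to 5 counts in B1, B3 and B7, and the log2 fold change was -1.24 ± 0.49 over in vivo and -1.26 without B2. Between the media the serum embryos were lower by -2.64 ± 0.58 on the log2 scale, and by -2.68 without B2.

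GALC removes galactose from galactosylceramide. It had so few counts that it was not tested between the cultures over both sexes. Its level was 0.491 to 10.5 CPM in vivo (median 3.15), 0 to 6.37 in serum (median 2.96) and 1.13 to 39.5 in serum-free medium (median 5.20). The highest embryo was C7, with 151 counts.

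SGPL1, sphingosine-1-phosphate lyase, carries out the last step, the irreversible cleavage of sphingosine 1-phosphate. It lay at 73.98 to 148.4 CPM in vivo (median 102.3), at 49.2 to 126.1 in serum (median 103.1) and at 64.0 to 119.7 in serum-free medium (median 100.1). The medians were close and in each medium 6 of 8 embryos lay within the in vivo range. The log2 fold change was -0.13 ± 0.22 for serum over in vivo, -0.11 without B2, and -0.10 ± 0.17 for serum-free over in vivo, with a 95% interval from -0.43 to 0.23 (edgeR adjusted p = 0.784).

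**Figure D2:**
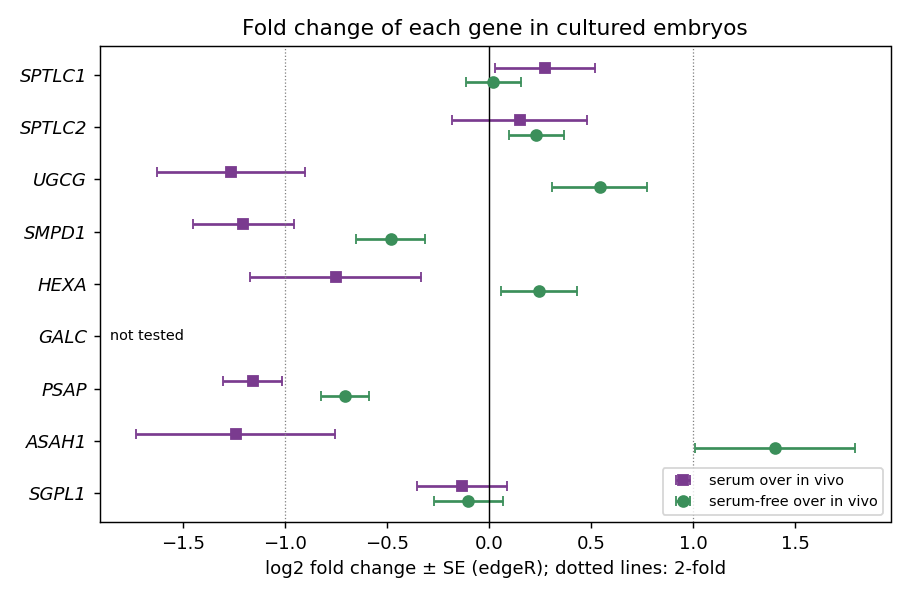
Log2 fold change of each gene in serum (squares) and serum-free embryos (circles) over the in vivo derived embryos, with the approximate standard error of edgeR as bars and dotted lines at a 2-fold change. ASAH1, UGCG and HEXA lie on opposite sides of 0 in the 2 media, at -1.24 and 1.40, at -1.26 and 0.54 and at -0.75 and 0.245. SMPD1, PSAP and SGPL1 are below 0 in both, SGPL1 only at -0.13 and -0.10.

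Counted over the genes, between in vivo derived and serum embryos 3 of the 8 tested (UGCG, SMPD1 and PSAP) were called lower in serum, that is, with an adjusted p under 0.05 and at least a 2-fold change. The share among all genes tested was 7.34%, and since this contrast chose the genes nothing is read from the count. The median log2 fold change of the 8 was -0.95, and -0.78 without B2, against 0.01 over all genes tested. Of the 6 trophectoderm markers tested in the same contrast 4 were called lower, also without B2. The median of the 6 was -1.93 (-1.77 without B2). The markers did not move as one: TFAP2C had a median of 231.4 CPM in vivo and 229.9 in serum. TEAD4 was at 34.6 and 59.3, with 7 of 8 serum embryos above the in vivo range. The part of these markers in the difference of the sphingolipid genes was not tested. Between in vivo derived and serum-free embryos 1 of 8 (ASAH1) was called higher, against 1.61% of all genes tested, and none lower, against 0.588%. At any fold, ASAH1 and PSAP had an adjusted p under 0.05, as did 5.82% of all genes tested, and 4 of the 8 had an unadjusted p under 0.05, as did 21.5% of all genes tested. Their median log2 fold change was 0.13, against 0.003 over all genes. Between the media 2 of 8 (ASAH1 and UGCG) were called lower in serum, against 5.36% of all genes tested, and without B2 it was also 2 of 8, against 4.85%. That comparison shares its serum embryos with the one used to choose the genes and is a description.

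**Figure D3:**
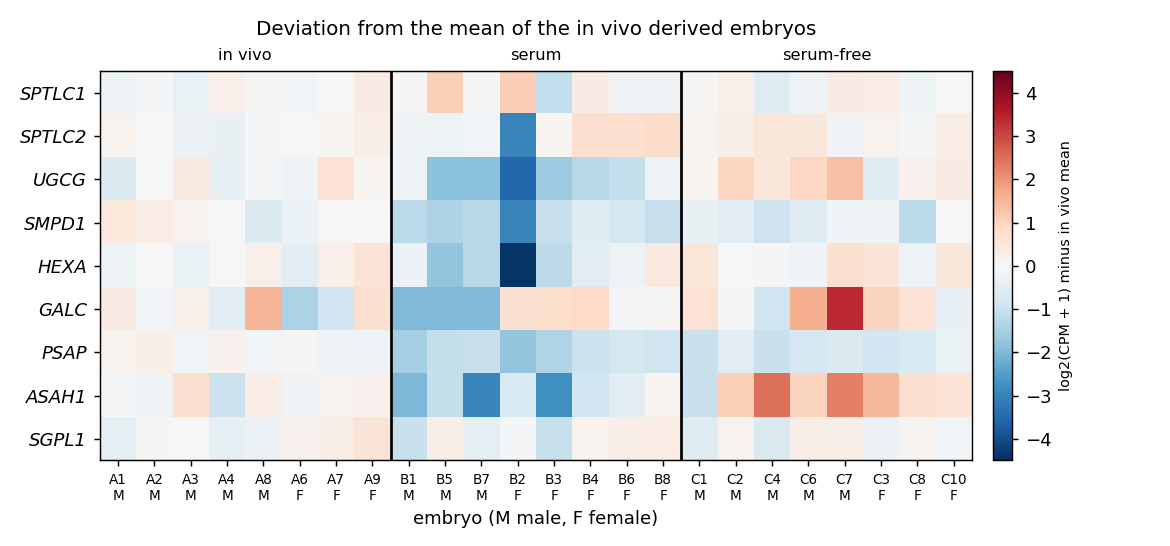
Difference of log2(CPM + 1) from the in vivo mean for each gene (rows, in the order of the pathway) and embryo (columns, grouped by culture, males before females). Most serum embryos are low in UGCG, SMPD1, PSAP and ASAH1, B2 is lowest in HEXA, and the 3 male serum embryos share the low GALC value.

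Male and female embryos were then compared within each culture. In the in vivo derived embryos edgeR called 0 of the 8 genes tested, against 0.653% of all genes. DESeq2 called 0, and 1 had an unadjusted p under 0.05, against 13.5% of all genes. The gene was SGPL1, at 73.98 to 104.8 CPM in the 5 males and 113.9 to 148.4 in the 3 females. These ranges did not overlap, but the share of all genes without overlap between these sexes was not obtained, so nothing is read from it. The log2 fold change of male over female, -0.55 ± 0.17, had an edgeR adjusted p of 0.161. In serum-free embryos edgeR and DESeq2 also called 0 of 8, the share called by edgeR over all genes being 0.139%, and 1 had an unadjusted p under 0.05, against 8.01% of all genes. There UGCG was at 59.7 to 141.9 CPM in the 5 males and 37.9 to 72.2 in the 3 females, a log2 fold change of 0.79 ± 0.31 (edgeR adjusted p = 0.573).

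In serum embryos 1 of the 8 genes tested was called between the sexes, against 0.173% of all genes tested. It was GALC, whose difference there was known from earlier results of these data. The males B1, B5 and B7 had 0 counts each, and the females B2, B3, B4, B6 and B8 had 22, 25, 35, 16 and 17. Over the 3 males this was 0 of 15812941 counts. A limit of 3 counts over the group gives 0.195 CPM, and the pooled female level of 4.59 CPM was 23.5-fold that limit. The limit covers counting error only and not the spread between embryos, so this is no bound on the difference between the sexes. A two-sided exact permutation test of the CPM gave p = 0.0357, which is the smallest that 3 against 5 embryos allow. In edgeR the adjusted p was 0.0428. It lay between 0.0577 and 0.149 with each of the 8 embryos left out in turn, so the call was lost in all of them, and it was 0.0577 without B2. GALC entered this test only because all 5 females had at least 15 counts, that is, through the group in which it was high, and with males at 0 it had to differ. The permutation p and the edgeR p therefore restate these counts, and nothing is read from either.

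In the other cultures male embryos did have GALC counts. The 5 in vivo derived males had 8 to 43 and the 3 females 2 to 23, and the 5 serum-free males had 4 to 151 and the 3 females 7 to 40. The ranges of the sexes overlapped in both. The number of genes with a count was 11735 to 12390 in the male serum embryos and 12348 to 14732 in the female ones, ranges that overlapped between B1 and B2, although B5 was the most deeply sequenced embryo of all, and the part of this in the GALC difference was not tested. The other genes tested between the sexes in serum had log2 fold changes from -0.56 to 0.24. ASAH1 was not tested there, since both sexes had embryos under 15 counts.

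Within the male embryos, the values for serum over in vivo were called for 3 of 8 genes, against 8.03% of all genes tested that were lower in serum. Since these embryos are part of the contrast that chose the genes, nothing is read from this count. They were ASAH1 with a log2 fold change of -2.27 ± 0.72, SMPD1 with -1.41 ± 0.26 and PSAP with -1.29 ± 0.18. ASAH1 there rests on males with 5, 32 and 1 counts, its log2 fold change ran from -3.36 without B5 to -1.85 without B7, and its adjusted p was no longer under 0.05 in 6 of the 8 fits that left out 1 embryo. UGCG was at -1.06 ± 0.44 in males, and at -1.91 without B1. In females 0 of 9 were called by edgeR and by DESeq2 and 3 had an unadjusted p under 0.05, from which again nothing is read. The share of all genes was 0.418% called by edgeR, 7.19% called by DESeq2 and 21.1% with an unadjusted p under 0.05, and edgeR called 446 genes without B2 instead of 34. The female values were -1.47 ± 0.58 for UGCG, -0.97 ± 0.43 for SMPD1, -0.97 ± 0.24 for PSAP and -0.82 ± 0.68 for ASAH1. Without B2 they were -1.21, -0.74, -0.86 and -0.83. GALC, which could be fitted in females only, was at 0.98 ± 0.74, and at 0.91 without B2.

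For serum-free over in vivo, edgeR called 0 of 8 genes in males, against 0.966% of all genes, and DESeq2 called 1, ASAH1, against 2.62%. An unadjusted p under 0.05 was found in 5 of the 8 and in 18.0% of all genes tested. PSAP was at -0.82 ± 0.14 in males (edgeR adjusted p = 0.0183, below 2-fold), ASAH1 at 1.62 ± 0.55 (adjusted p = 0.136) and UGCG at 0.93 ± 0.25 (adjusted p = 0.0700). Without the male C1, the lowest of the serum-free embryos for ASAH1, both ASAH1 and UGCG were called in males. In females edgeR and DESeq2 called 0 of 8, against 0.304% and 2.20% of all genes, and 1 had an unadjusted p under 0.05, against 14.0% of all genes. PSAP was at -0.48 ± 0.18 there, ASAH1 at 0.99 ± 0.45 and UGCG at -0.19 ± 0.32.

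Whether the sexes changed differently was tested as an interaction. With serum, edgeR called 0% of all genes, 1 of the 9 genes had an unadjusted p under 0.05, against 5.16% of all genes, and DESeq2 called 1, against 0.166%. That gene was GALC in both (edgeR adjusted p = 0.664, and 0.283 without B2; DESeq2 adjusted p = 0.00832). GALC entered this fit too only through the serum females, the single group with at least 15 counts in every embryo, so its value restates the absence of counts in the serum males. With serum-free medium edgeR called 0% of all genes and DESeq2 0 of the 8 genes tested, and 1 of the 8 had an unadjusted p under 0.05, against 6.59% of all genes. It was UGCG, whose male change exceeded the female change by 1.12 ± 0.42 on the log2 scale (edgeR adjusted p = 0.695). For PSAP the difference between the sexes was -0.28 ± 0.30 with serum and -0.35 ± 0.23 with serum-free medium. For ASAH1 it was -1.42 ± 1.05 and 0.63 ± 0.82, intervals too wide to separate equal changes in the sexes from unlike ones.

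Further genes, outside the 9, were taken from lists of textbook composition on sphingolipid metabolism and on the synthesis of GPI anchors. Of 94 such genes 92 were found in the count data. Between in vivo derived and serum embryos 55 were tested, 11 were called lower in serum and 1 higher, where 7.34% of all genes tested were lower and 6.43% higher. GPI anchor genes made up 27 of the 55, 5 of the 11 lower and the 1 higher. Without B2, 14 of all 55 were called lower and 1 higher, against 6.46% and 5.52%. The median log2 fold change was -0.41, and -0.32 without B2. The lists hold glycolipid genes of the kind that the choice of the 9 was made on, in the same contrast, so these counts are a description and no independent evidence. Between in vivo derived and serum-free embryos 1 of 55 was called higher, against 1.61% of all genes, and none lower, against 0.588%, and the median was -0.13. In males 12 of 56 were called lower in serum, against 8.03% of all genes, and in females 1 of 60, where edgeR called 0.418% of all genes in either direction. Without B2 it was 5 of 61 in females, against 2.98%. The difference of these counts between the sexes was not tested.

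In ceramide synthesis 2 of the 9 other genes tested were called lower in serum, against 7.34% of all genes tested. They were ORMDL2 and DEGS2, and both were also called without B2, where the share was 6.46%. ORMDL2, a regulator that restrains serine palmitoyltransferase, had 20.8 to 50.8 CPM in vivo and 3.81 to 17.7 in serum, without overlap, and 19.5 to 84.9 in serum-free medium. Its log2 fold change for serum over in vivo was -2.06 ± 0.33, and -1.97 without B2. Groups without overlap, in either direction, were seen in 7.09% of all genes tested in that contrast. DEGS2, a dihydroceramide desaturase and hydroxylase, was at 149.9 to 258.8, 3.18 to 117.2 and 102.5 to 177.2 CPM in the same order, and was called in serum at -1.74 ± 0.44, and at -1.52 without B2. In serum-free medium 7 of 8 embryos were below the in vivo range of DEGS2, with a log2 fold change of -0.54 ± 0.13 (edgeR adjusted p = 0.0177, below 2-fold).

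Apart from ORMDL2, described above, the tested partners of SPTLC1 and SPTLC2 in the enzyme complex had small differences. SPTLC3, an alternative catalytic subunit, was at 0.22 ± 0.28 on the log2 scale in serum and -0.13 ± 0.24 in serum-free medium. SPTSSA, a small activating subunit, was at 0.19 ± 0.32 and -0.08 ± 0.26, and ORMDL1 at -0.06 ± 0.26 and -0.17 ± 0.27. SPTSSB and ORMDL3 were below the count limit, at no more than 0.489 and 11.1 CPM in any embryo.

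Of the lysosomal genes of glycosphingolipid breakdown, 2 of the 8 others tested were called lower in serum, against 7.34% of all genes tested. Without B2 it was 3, against 6.46%. GM2A, the activator protein that presents GM2 ganglioside to hexosaminidase A, had 602.3 to 911.4 CPM in vivo and 196.0 to 323.0 in serum, a log2 fold change of -1.49 ± 0.14. It was at 395.0 to 1053 CPM in serum-free medium. ARSA, arylsulfatase A, which desulfates sulfatide, had 14.3 to 29.7 CPM in vivo and 0 to 7.59 in serum, a log2 fold change of -3.15 ± 0.67, and 12.6 to 32.1 in serum-free medium. Without B2 the values for serum were -1.44 for GM2A and -2.93 for ARSA. In both genes all 8 serum embryos lay below all in vivo derived ones, while 7.09% of all genes tested had groups without overlap in either direction.

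SMPDL3A, a phosphodiesterase related to SMPD1, was lower in serum by -1.49 ± 0.21 on the log2 scale, at 18.3 to 42.7 CPM against 63.1 to 121.7 in vivo. Groups without overlap, in either direction, were seen in 7.09% of all genes tested in that contrast. In serum-free medium SMPDL3A was at 25.9 to 129.9 CPM, with 7 of 8 embryos below the in vivo range and 1 above it. ALDH3A2, the aldehyde dehydrogenase that acts on the fatty aldehyde released by SGPL1, was lower in serum by -1.17 ± 0.23. Of the 27 genes tested in the synthesis of GPI anchors, glycolipids that tether proteins to the membrane, 5 were called lower in serum and 1 higher (6 and 1 without B2). The largest changes were those of the mannosyltransferases PIGV, at -1.995 ± 0.57, and PIGZ, at 1.65 ± 0.38, and of the remodelling factor PGAP3, at -1.51 ± 0.50, and without B2 these were -1.80, 1.42 and -1.54. In serum-free medium 1 of the 27, PIGB, a further mannosyltransferase, was called higher, at 1.13 ± 0.32, against 1.61% of all genes tested. Among 21 further lysosomal proteins tested, cholesterol and lipid handling ones such as LIPA, NPC1 and NPC2 included, 2 were called lower in serum and 2 higher (2 and 1 without B2). For this list and the GPI anchor list, the share of all genes tested was 7.34% lower and 6.43% higher. Without B2 the share was 6.46% and 5.52%. The proteases CTSZ and CTSD were at -3.41 ± 0.52 and -2.59 ± 0.52, while the protease LGMN was higher, at 1.25 ± 0.23, and also higher in serum-free medium, at 1.16 ± 0.23. Without B2 the serum values were -3.22, -2.40 and 1.23. The in vivo derived embryos are shared by both LGMN values.

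**Figure D4:**
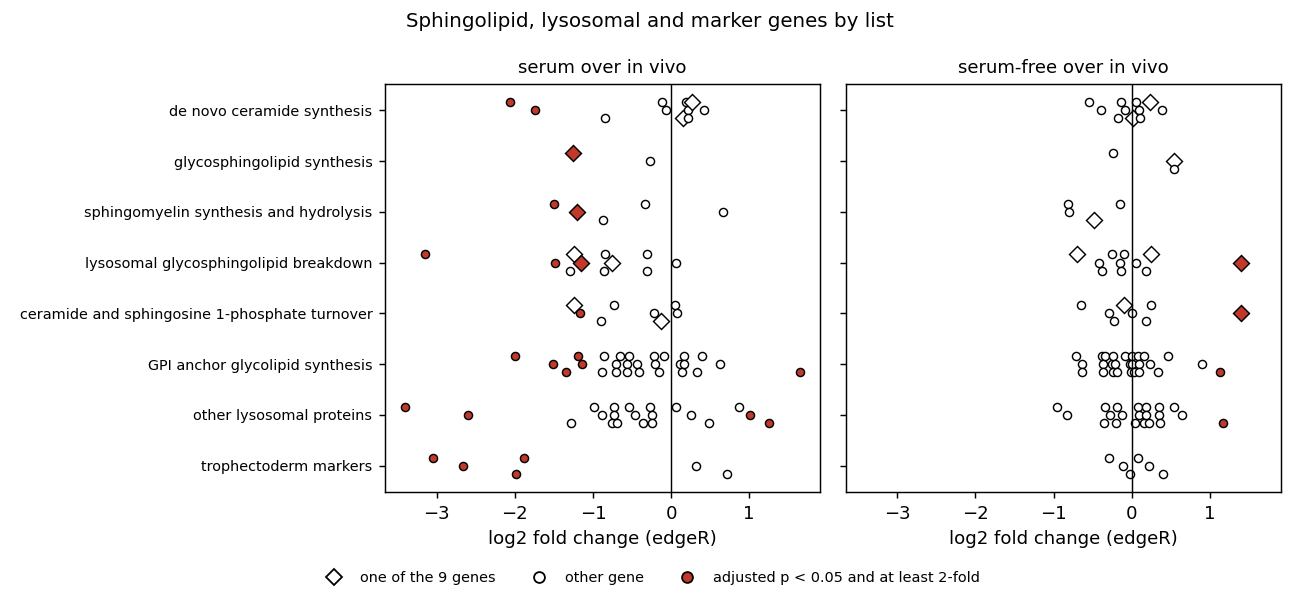
Log2 fold change over the in vivo derived embryos in serum (left) and serum-free medium (right), for each gene tested in the lists. These cover sphingolipid metabolism, GPI anchor synthesis, further lysosomal proteins and trophectoderm markers. Diamonds are the 9 genes and circles are other genes, filled where the adjusted p was under 0.05 with at least a 2-fold change, and ASAH1 stands in 2 lists. In serum the filled symbols lie mostly below 0, and KRT8 and KRT18 of the trophectoderm list are at -3.05 and -2.66. TEAD4 of that list had a higher median level in serum than in vivo.

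The joint variation of the genes from embryo to embryo was described with the mean of each culture subtracted from log2(CPM + 1), over 24 embryos that share library preparation and depth with each value. The highest Pearson correlation among the 9 genes was that of SPTLC2 with HEXA, 0.855, and it was 0.550 without B2 (Spearman 0.342 with B2). Between ASAH1 and SGPL1 it was 0.531, and 0.529 without B2. The gene outside the lists most like each of the 9, among 7461, was WWP2 for ASAH1 (r = 0.779), SLC25A30 for GALC (0.791), NDEL1 for SPTLC1 (0.780), AP1G2 for SPTLC2 (0.942), CRIP1 for UGCG (0.895), CDC45L for SMPD1 (0.865), VPS26A for HEXA (0.936), DDB1 for PSAP (0.781) and NEK7 for SGPL1 (0.847). Without B2 the pair of SPTLC2 and AP1G2 dropped to 0.756 and that of SMPD1 and CDC45L to 0.715, while NEK7 and SGPL1 were at 0.855.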

How the data were processed

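The authors trimmed the paired-end reads by quality, mapped them with CLC Genomics Workbench to the bovine genome (build UMD3.1) and deposited, for every gene and embryo, the raw count of uniquely mapped exon fragments, not normalized. The libraries were not strand-specific. Sample labels gave each embryo's culture and sex.

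The quasi-likelihood test of edgeR 4.0.16 (R 4.3.3), after TMM normalization, was applied to all genes in which every embryo of at least 1 group compared had 15 counts or more and its p-values were adjusted by Benjamini-Hochberg over all of them. A gene was called with an adjusted p under 0.05 and at least a 2-fold change. Standard errors were approximated from each fold change and its F statistic, and 95% intervals follow from them. Log2 fold changes are serum or serum-free over in vivo, serum over serum-free, and male over female. The 12 comparisons were fitted separately. Simulated data were run beforehand only for serum-free and serum over in vivo in both sexes, for the sexes in serum and for the interaction with serum. CPM were computed over the 24 embryos with 7557 genes. Alternatives were DESeq2 1.42.0, edgeR's exact test, which the study's methods name, DESeq2 size factors, other count limits, a fit over all embryos, sex as a covariate, thinned counts, a replicate block and each embryo left out.

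The genes and lists were chosen with earlier results of these data known. Of further genes, at most the 3 with the largest change per list among those called, the partners of the 9 genes and the most correlated gene of each are named. Counting limits cover counting error only, since fragments carry no molecular identifiers. Promoter and protein sequences, gene lengths and coordinates were not used here.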

Additional observations from a re-analysis of the deposited data

Results flagged for a closer look

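Within each culture (8 embryos) and each group of 5, embryos far from the others on the log2(CPM + 1) scale were sought in 54 groups of values, where chance flags about 1 in 20. There were 5 flags, all of them for the female serum embryo B2. Its SPTLC2 level was 10.27 CPM, against 75.9 to 161.1 in the other serum embryos and 96.2 to 161.1 in the other serum females. Its SMPD1 level was 24.21 CPM, against 74.03 to 133.3 in the other serum embryos and 95.3 to 133.3 in the other serum females. Its HEXA level was 1.712 CPM, against 15.9 to 76.2 in the other serum embryos.

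GALC in the serum embryos lay on opposite sides of the in vivo mean in the sexes: all 3 male serum embryos lay below the in vivo male mean of 4.55 CPM and all 5 female ones above the in vivo female mean of 2.40 CPM. In females the ranges overlapped, since the in vivo derived embryo A9, at 5.58 CPM, lay above 3 of the 5 serum females, and the female log2 fold change was 0.98 ± 0.74, which was not called. The interaction of sex and culture had an adjusted p of 0.664 in edgeR and 0.00832 in DESeq2, and GALC entered that fit only through the serum females.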

How the results depend on the processing

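For 43 fold changes of the 9 genes refitted 859 times under alternatives and left-out embryos, the direction was kept in 844 refits. The 15 changes of direction were of values near 0. For serum-free over in vivo they were SGPL1 at 0.0024 in the replicate block and between -0.15 and 0.016 with each embryo left out (positive without A9), and SPTLC1 between -0.025 and 0.10 with each embryo left out (negative without A3, C2, C3 or C7). Between the media they were SPTLC1 at -0.0033 in the replicate block, SPTLC2 at 0.11 without B2, and SGPL1 at 0.014 to 0.076 in 7 fits that left out 1 embryo (B1, B3, B7, C2, C6, C7 or C8). PSAP passed for serum-free in all 9 alternatives, with adjusted p from 7.88e-06 to 0.00719.

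The number of the 9 genes called was 2 to 4 under the alternatives for serum against in vivo (3 or 4 with each embryo left out). For serum-free against in vivo it was 0 with at least 1 count in any embryo, with 1 fit over all 24 embryos, with thinned counts and in the replicate block, and 0 to 1 with each embryo left out; for ASAH1 the adjusted p ran from 0.0063 to 0.160. Between the media it was 1 with a limit of 15 counts applied to both groups and with thinned counts, and 0 in the replicate block. In males it was 1 with DESeq2 and 0 to 2 with each embryo left out for serum-free, and 2 to 4 with each left out for serum. Between the sexes in serum it was 0 with at least 1 count in any embryo, 0 with the limit in both groups, where GALC cannot enter, and 0 in each of the left-out fits. For the interaction with serum it was 1 with DESeq2. The cause of these shifts was not tested.

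Counts of genes called over all tested moved by more than 1.5 times as follows. The limit in both groups gave 544 instead of 1011 for serum, 94 instead of 161 for serum-free and 366 instead of 640 between the media, and 0 instead of 13 and 11 between the sexes in serum and serum-free. For serum-free, 1 fit over all embryos gave 72. DESeq2 and the exact test gave 585 and 467 instead of 34 for serum and 181 and 192 instead of 25 for serum-free in females, 201 and 199 instead of 74 for serum-free in males, and 116 and 119 instead of 52, 97 and 62 instead of 13, and 57 and 53 instead of 11 between the sexes in vivo, in serum and in serum-free. DESeq2 gave 14 and 5 instead of 0 for the interactions. At least 1 count gave 58 and 232 in females for serum and serum-free, and 92 and 23 between the sexes in vivo and in serum-free. With each embryo left out, the females gave 2 (without A6) to 446 (without B2) for serum and 1 (without A6) to 18 for serum-free. The males gave 658 (without B7) to 1755 (without B1) and 9 (without A4) to 122 (without C7). It was 393 (without C7) to 784 between the media, 7 to 23 and 8 to 17 between the sexes in serum and serum-free, and 0 to 3 (without B1) for the interaction with serum.

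Embryos with the same number in 2 cultures did not vary together (r from -0.127 to 0.0881 over 7 pairs for each pair of cultures), so the numbers do not pair them. The replicate block, fitted on those embryos, called 703 genes and 2 of the 9 for serum, 82 and 0 for serum-free, and 29 and 0 between the media. Low counts limit ASAH1 and GALC most.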
